A study of Homo sapiens with 52 samples.

Results

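Routes into permanent growth arrest were compared directly in WI-38 cells, a strain of normal human embryonic lung fibroblasts. PMD-Sen cells at day 16 (plasma membrane damage-dependent senescence) had been young cells, population doubling level (PDL) 32 to 46, that were held for 24 h in medium with 0.009% sodium dodecyl sulfate (SDS), washed, and cultured for 16 d. RS cells (replicative senescence) received no agent and were passaged until they stopped dividing, around PDL 52. Untreated young cells of PDL 32 to 46 were the common reference. Each group had 2 mRNA-seq libraries out of the 52 libraries in 26 groups of the series, and all groups share 1 cell strain, so the libraries give the spread of this strain alone. The genes compared were those with a mean normalized read count of at least 10 in both the PMD-Sen and the RS table, which kept 14741 of 59408 genes. The gene just inside that limit was AC137932.2 with a smaller mean of 10.0007 and a log2 difference of -0.67 (SE 1.46), and the gene just outside was RPL37A-DT with 9.99747 and 0.18 (SE 1.39).

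Senescent cells have left the cell cycle for good but stay alive and secrete proteins that act on their neighbours. In replicative senescence the trigger is the shortening of telomeres, the chromosome ends, which is read as DNA damage and holds the cycle through the CDK inhibitors p21 (CDKN1A) and p16 (CDKN2A). A torn plasma membrane lets Ca2+ in and is closed by repair proteins such as the ESCRT-III complex, annexins and ferlins. Loss of lamin B1 (LMNB1), a protein of the nuclear lamina, and silence of genes for DNA replication and mitosis are common marks of senescent fibroblasts. The comparison asks which genes separate these end states from each other, rather than from young cells.

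Whole reads of the single libraries were recovered from the deposited means for 14490 of the 14741 genes. The genes without recovered reads include many of the most abundant ones. Read sums were taken over all genes, with the best estimate, where there was one, for genes not recovered. They were 18877305 and 15325659 in untreated, 56405143 and 46393780 in RS and 33104341 and 30026325 in PMD-Sen day 16 libraries. The deeper library of each pair is called A and the other B, since the files do not say which replicate is which, and levels are reads divided by size factors (normalized reads). Over 10665 genes with a level above 100 in untreated cells, the median difference between the libraries of a pair was 0.11 on the log2 scale in untreated, 0.18 in RS and 0.16 in PMD-Sen cells. It exceeded 1 for 4.25% of genes in RS, 1.82% in PMD-Sen and 0.572% in untreated cells, so RS had the widest spread. All 12 fibroblast markers were measured in both groups, among them COL1A1, COL1A2, VIM and THY1, and 1 of them, LUM, differed. The defining markers of other cells were listed at low means or 0: 8 of 12 epithelial markers had a mean below 10 in both tables, EPCAM and CDH1 among them, as did 6 of 9 endothelial markers with PECAM1 and CDH5, and 10 of 12 white blood cell markers with PTPRC. KRT5, NKX2-1, CD3E, CD3D and FCGR3A were listed at 0. ID3 and PSMB8, which fibroblasts commonly express, were listed at 0 as well, so a 0 in these tables does not by itself show that a gene is silent. CD14, the white blood cell marker that was tested, had a level of 28.1 normalized reads in untreated, 260 in RS and 249 in PMD-Sen cells. The summed level of the epithelial markers was 3814 in untreated, 5159 in RS and 3572 in PMD-Sen cells, and that of the endothelial markers 3078, 4906 and 5267. Among smooth muscle and pericyte markers 1 of 8, MYH11, was below a mean of 10, and the sums were 20892, 17373 and 14319. Among neuron markers 4 of 8 were below it, RBFOX3 among them, and the sums were 401, 1168 and 516. The other 4 had a median difference of -1.25 with none called, and the part of such genes in the results was not tested.

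A difference is the log2 level in PMD-Sen day 16 minus that in RS, and a gene is called at an adjusted p under 0.05 (z test on the difference between the tables, Benjamini-Hochberg over all 14741 genes). In all, 102 genes were called, 0.692% of those tested. Of these, 46 (0.312%) were higher in PMD-Sen cells and 56 (0.38%) were lower, and 43 and 49 of them by at least 1 log2 unit. Replicate libraries of both groups did not overlap for any called gene with reads, 45 higher and 56 lower, beside 23.8% and 23.3% of all genes with reads that lay apart upwards and downwards. The median difference over all genes was -0.00242. The count depended on how the error was formed. The z test counts the error of the untreated libraries, which cancels in a direct difference, and without it 749 genes (5.08%) were called, including all 102, with 320 higher (2.17%) and 429 lower (2.91%). Limma-voom on the recovered reads called 13 genes (0.0897%), 1 higher (0.0069%) and 12 lower (0.0828%). It estimates the spread of each gene within the groups of all 6 libraries and draws it towards a value shared by all genes. Of the 101 z test genes with reads, limma-voom called 7, with 0 of those higher and 7 of those lower. An unadjusted p under 0.05 was found for 2394 genes (16.5%) by limma-voom and for 917 (6.22%) by the z test. The calls below are those of the z test. The genes that limma-voom also called are marked where they are named.

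**Figure D1:**
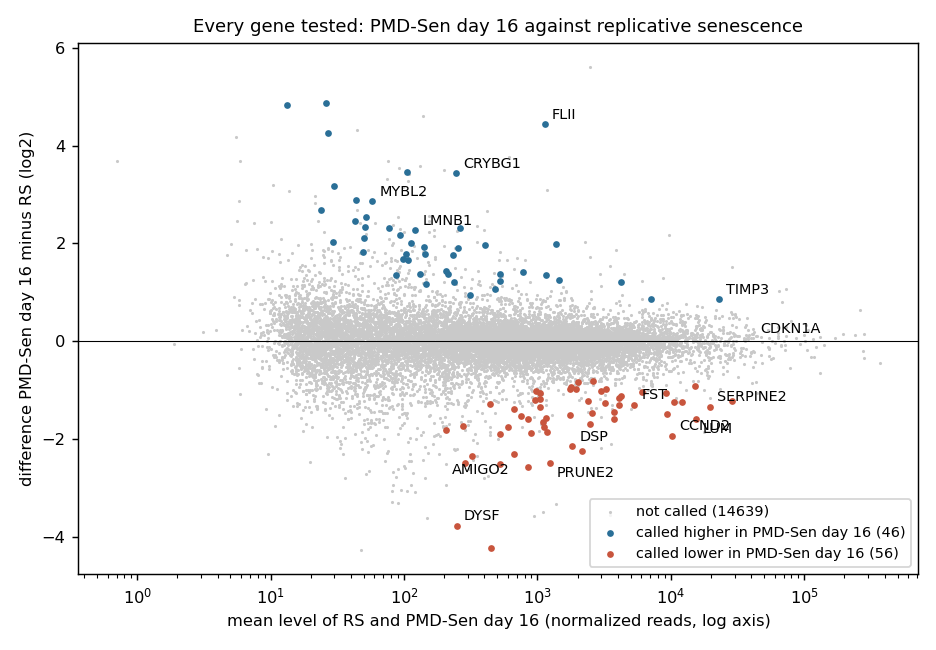
Difference PMD-Sen day 16 minus RS (log2, vertical axis) against the mean level of both groups (normalized reads, log axis) for 14741 genes. The 46 genes called higher (blue) lie mostly at low levels and the 56 called lower (red) at higher levels, with grey points for genes not called.

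Genes of cell division were higher in PMD-Sen cells. All 25 measured mitosis genes had a higher level in PMD-Sen day 16 than in RS. Their median difference was 1.59 against -0.00242 for all genes, and 6 were called higher, against 0.312% of all genes. All 24 measured DNA replication genes also had the higher level in PMD-Sen cells, with a smaller median of 0.59. Of these, 3 were called higher, against the same 0.312% of all genes. None of either list was called lower. Limma-voom called 0 genes of either list, against 0.0897% of all genes with reads. Both PMD-Sen libraries lay above both RS libraries for 17 of 24 mitosis genes and 18 of 24 replication genes with reads, against 23.8% of all genes. In bulk RNA, a few cells that still divide and a low level in every cell cannot be told apart.

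The window before the start of such genes often holds short elements through which they are repressed or induced together. The CHR (letters TTTGAA or TTTAAA) is bound with the DREAM complex in arrested cells, the CCAAT box by NF-Y, and TTCCCGC by E2F factors. Of the 49 measured cell cycle genes, 41 had a RefSeq promoter window (GRCh38.p14), and within the 250 bases before the start 75.6% held CCAAT on either strand, 46.3% a CHR and 29.3% TTCCCGC. The shares over all 27305 genes with a window were 37.0%, 25.5% and 6.66%, and over the 10472 tested genes with one 41.2%, 19.8% and 10.8%. Of the genes called higher, 38 had a window, of which 19 held CCAAT, 12 (31.6%) a CHR and 4 (10.5%) TTCCCGC. In the 39 windows of genes called lower the shares were 46.2%, 20.5% and 12.8%. Shown here are the last 150 bases before the start, 5′ to 3′ on the gene's strand, of 2 mitosis and 2 replication genes called higher, with every match of these letters or their reverse complement in capitals:
PLK1, chr16:23678739-23678888, plus strand: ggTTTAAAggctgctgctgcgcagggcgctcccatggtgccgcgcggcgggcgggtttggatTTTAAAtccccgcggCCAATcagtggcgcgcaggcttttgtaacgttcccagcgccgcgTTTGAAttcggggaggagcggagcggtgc
BUB1, chr2:110678064-110678213, minus strand: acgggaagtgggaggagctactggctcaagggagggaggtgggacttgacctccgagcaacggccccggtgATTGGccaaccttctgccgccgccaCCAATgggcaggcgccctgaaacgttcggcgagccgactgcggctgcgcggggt
TK1, chr17:78187053-78187202, minus strand: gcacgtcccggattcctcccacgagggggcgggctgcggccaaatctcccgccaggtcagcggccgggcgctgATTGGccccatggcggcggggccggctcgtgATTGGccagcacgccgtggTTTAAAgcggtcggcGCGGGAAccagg
MCM10, chr10:13161408-13161557, plus strand: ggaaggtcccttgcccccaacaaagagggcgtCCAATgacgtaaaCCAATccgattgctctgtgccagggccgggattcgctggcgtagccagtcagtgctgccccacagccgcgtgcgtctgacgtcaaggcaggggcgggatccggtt
PLK1 held both CHR spellings and a CCAAT box, and TK1, from the second of its listed starts, held a CHR, CCAAT in reverse and TTCCCGC in reverse. BUB1 held CCAAT on both strands, and MCM10 held it in a pair on the coding strand. No match was found in the same 150 bases of MYBL2, KIF2C and IQGAP3, which says only that these letters are not there.

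The named genes of this group gave the same order of groups. MYBL2, the transcription factor that drives the G2/M genes, had 844 and 796 normalized reads in untreated, 19.0 and 8.14 in RS and 145 and 57.9 in PMD-Sen libraries. Its difference was 2.87 (SE 0.49, adjusted p = 9.8e-06, z test), 7.29-fold. PLK1, the kinase that starts mitosis and drives spindle assembly, had 1427 and 1488, then 77.8 and 38.7, then 287 and 159. The difference of 1.93 (SE 0.42) had an adjusted p of 0.00235 (z test). Every PMD-Sen library of both genes was above every RS library and far below both untreated libraries.

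KIF2C, a kinesin that corrects faulty attachment of chromosomes, differed by 2.16 (SE 0.49). It had 48.7 and 19.0 normalized reads in RS and 207 and 98.8 in PMD-Sen libraries. AURKB, the kinase of the same correction, differed by 1.84 (SE 0.51), and BUB1, a kinase of the spindle checkpoint, by 1.78 (SE 0.49). IQGAP3, a scaffold protein found in dividing cells, differed by 2.01 (SE 0.53). FOXM1, a driver of mitotic genes, and TPX2, a spindle assembly factor, complete the 6 called mitosis genes with 1.38 (SE 0.37) and 1.07 (SE 0.29).

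Among replication genes, TK1, which salvages thymidine, had 153 and 60.4 normalized reads in RS against 478 and 321 in PMD-Sen libraries, a difference of 1.90 (SE 0.44). TYMS, which makes thymidylate, had 175 and 111 against 325 and 341, a difference of 1.21 (SE 0.33). MCM10, a loading factor of the replication fork, had 13.8 and 9.49 against 63.0 and 31.9, a difference of 2.02 (SE 0.52). All 3 were lower than in untreated cells in every library. MCM subunits of the replicative helicase differed by less, with 0.53 for MCM2 (SE 0.34), 0.54 for MCM7 (SE 0.23) and 0.16 for MCM4 (SE 0.28). Other parts of the helicase varied, with 1.81 for CDC45 (SE 0.55), 1.86 for GINS2 (SE 0.55) and 0.39 for GINS1 (SE 0.36). None of these helicase genes was called.

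A further 11 called genes outside the lists are known for chromosome segregation, mitotic entry or chromatin assembly, and were picked out after their values were seen: KIF2C, KIF18B, CKAP2L, HJURP, PTTG1, TTK, NCAPG2, PKMYT1, SPAG5, GTSE1 and CHAF1B. Their differences ran from 0.95 to 2.89. CHAF1B, a subunit of the chromatin assembly factor, was even within pairs, with 50.3 and 47.5 normalized reads in RS and 131 and 119 in PMD-Sen libraries. MKI67, the usual marker of cycling cells, had 193 and 35.9 normalized reads in RS and 846 and 335 in PMD-Sen libraries. Its difference of 2.37 had an SE of 1.25 and was not called (adjusted p = 0.858, z test). It was 4.04 without RS library A and 1.55 without PMD-Sen library A.

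The libraries of a pair were not alike in these genes. The median mitosis gene lay 3.81 log2 units below the untreated mean in RS library A and 5.26 below in library B, and 2.37 and 3.41 below in PMD-Sen libraries A and B. RS library A and PMD-Sen library B thus lay close to each other. Without RS library A the differences were 3.64 for MYBL2, 3.01 for KIF2C, 3.01 for IQGAP3, 2.73 for TK1, 2.60 for BUB1, 2.59 for AURKB and 2.53 for PLK1, each over 1.5 times in fold above the value from both. Without PMD-Sen library A they were 2.09 for MYBL2, 1.55 for KIF2C, 1.4001 for IQGAP3 and 1.15 for BUB1. The direction could not change here, because the pairs of these genes did not overlap.

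**Figure D2:**
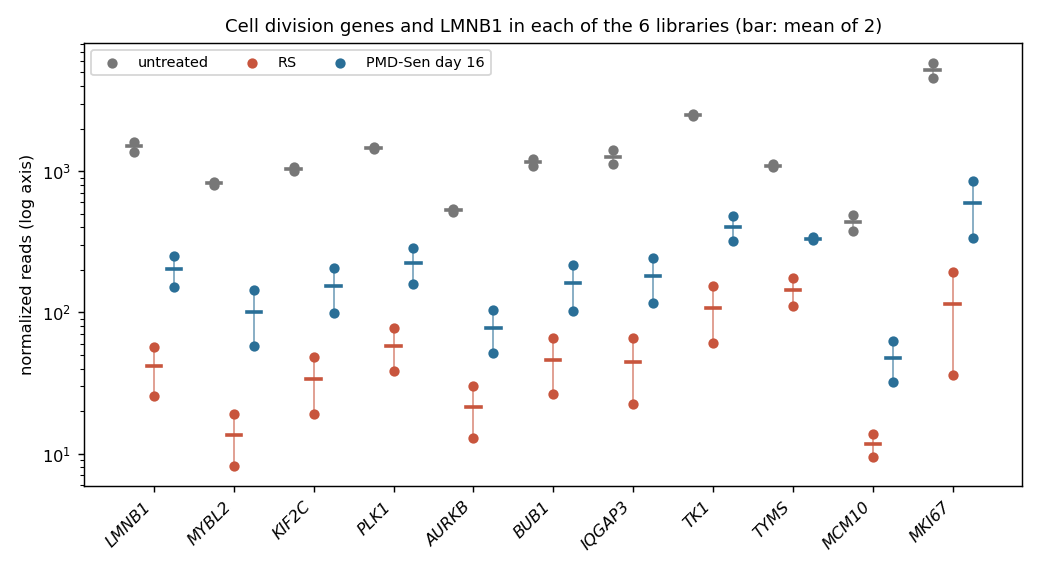
Normalized reads (log axis) of 10 cell division genes and LMNB1 in the 2 untreated (grey), 2 RS (red) and 2 PMD-Sen day 16 (blue) libraries, with a bar at each mean. In every gene shown the blue points lie above the red and below the grey, and the RS pair is widest apart in MKI67, at 193 and 35.9.

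LMNB1, whose loss marks senescent nuclei, had 1616 and 1375 normalized reads in untreated, 57.1 and 25.8 in RS and 252 and 151 in PMD-Sen libraries. The difference was 2.27 (SE 0.43, 95% interval 1.42 to 3.11, adjusted p = 0.000164, z test), 4.82-fold. Leaving out each senescent library in turn gave 1.82 to 2.97, the highest without RS library A. LMNB1 was not called by limma-voom (adjusted p = 0.137). Levels were thus lower than in untreated cells in both states, and lower in RS.

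CDK inhibitors did not move as one group. CDKN1A, which encodes p21, had a level of 42050 normalized reads in PMD-Sen and 40321 in RS cells against 25822 in untreated cells. The difference was 0.06 (SE 0.19), and its interval of -0.31 to 0.44 excludes a change of 1 log2 unit. CDKN2B, which encodes p15 and lies beside CDKN2A on chromosome 9, had 1018 and 2411 normalized reads in RS and 534 and 483 in PMD-Sen libraries. It was lower in PMD-Sen cells by -1.75 (SE 0.46, adjusted p = 0.0304, z test). Without RS library B the value was -1.001. CDKN2A, which encodes p16, had 2218 and 2024 in RS, 1152 and 1293 in PMD-Sen and 710 and 709 in untreated libraries. The 6 libraries fell into 3 groups without overlap, but the difference of -0.79 (SE 0.24) missed the threshold (adjusted p = 0.1, z test). It was called without the untreated share of the error (adjusted p = 0.000169) and not by limma-voom (adjusted p = 0.0919).

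CCND2, cyclin D2, which pairs with CDK4 and CDK6 in early G1, showed the opposite order from the mitotic genes. It had 433 and 411 normalized reads in untreated, 14141 and 18194 in RS and 4670 and 3783 in PMD-Sen libraries. The difference was -1.94 (SE 0.27, adjusted p = 3.86e-09, z test), 3.82-fold lower in PMD-Sen cells, and limma-voom also called it (adjusted p = 0.0424). Both senescent states were far above untreated cells, with no overlap among the 3 groups.

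The largest falls in PMD-Sen cells were in genes of varied function. PRUNE2, known mainly from nervous tissue and tumours, had 1850 and 2353 normalized reads in RS and 446 and 305 in PMD-Sen libraries, with 166 and 142 in untreated cells. The difference was -2.48 (SE 0.38), and limma-voom also called it (adjusted p = 0.0424). HMCN1, hemicentin 1, a large matrix protein, had 1089 and 1137 in RS, 233 and 215 in PMD-Sen and 194 and 239 in untreated libraries. Its difference was -2.31 (SE 0.35, adjusted p = 2.22e-07 by the z test and 0.013 by limma-voom). PMD-Sen and untreated libraries overlapped, so this gene set RS apart.

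AMIGO2, an adhesion protein, had 1767 and 1140 in RS and 279 and 212 in PMD-Sen libraries, and untreated libraries had 782 and 1151, overlapping with RS and above PMD-Sen cells. Its difference was -2.57 (SE 0.39). PLXDC2, a membrane protein with a plexin domain, had 2648 and 4487 in RS against 747 and 755. RTN1, a reticulon of the endoplasmic reticulum, had 587 and 1200 against 152 and 161. DGKI, a diacylglycerol kinase, had 674 and 406 against 104 and 107, and KCNC4, a potassium channel, had 1008 and 636 against 240 and 202. The differences of these 4 genes were -2.25, -2.51, -2.35 and -1.89 (SE 0.37, 0.65, 0.53 and 0.49), and that of RTN1 was -1.91 without RS library B. FZD8, a WNT receptor, had 214 and 755 in RS and 76.5 and 96.8 in PMD-Sen libraries. Its difference of -2.48 (SE 0.63) was -1.30 without RS library B, and untreated cells had 220 and 195, so RS library A alone was at the untreated level.

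SPOCK1, a proteoglycan, and NFASC, neurofascin, were also called by both tests and were picked out after their values were seen. SPOCK1 had 1895 and 1822 in RS and 522 and 497 in PMD-Sen libraries, a difference of -1.87 (SE 0.26). NFASC had 2735 and 2496 against 856 and 972, a difference of -1.52 (SE 0.29). The cadherin CDH6 and the protocadherins PCDH7 and PCDH9, chosen in the same way, were all called lower, by -1.25, -0.98 and -1.59, the last -2.22 without PMD-Sen library A. EEF1A2, a translation elongation factor of nerve and muscle chosen likewise and called by both tests, had 1601 and 1429 against 642 and 541.

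**Figure D3:**
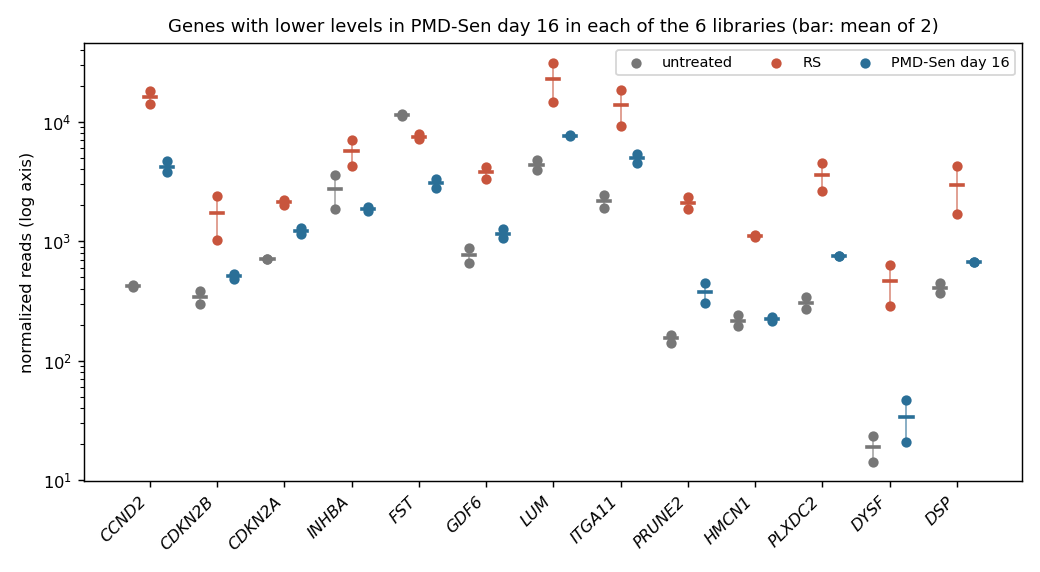
Normalized reads (log axis) of 13 genes in the 2 untreated (grey), 2 RS (red) and 2 PMD-Sen day 16 (blue) libraries, with a bar at each mean. The red points lie above the blue in every gene shown, 12 of which were called and 1 of which, CDKN2A, was not.

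Activin signalling held a ligand and its inhibitors among the genes lower in PMD-Sen cells. Activin A is a dimer of the INHBA product, and follistatin (FST) and FSTL3 bind and neutralise it. INHBA had 4290 and 7077 normalized reads in RS and 1804 and 1942 in PMD-Sen libraries, a difference of -1.60 (SE 0.44, adjusted p = 0.0444, z test). FST had 7208 and 7837 in RS, 3322 and 2771 in PMD-Sen and 11084 and 11705 in untreated libraries. Its difference of -1.30 (SE 0.21, adjusted p = 4.86e-07) was also called by limma-voom (adjusted p = 0.0444). FSTL3, picked out after its values were seen, had 2688 and 3988 against 1361 and 1487, a difference of -1.23 (SE 0.30). The ligand was higher in RS than in untreated cells and FST was lower in both states. Of the 17 measured TGF-beta family genes, INHBA and FST were the 2 called, against 0.38% of all genes called lower. The list median was -0.31. TGFB1 differed by -0.29 (SE 0.27), TGFBR2 by -0.11 (SE 0.20) and SMAD3 by 0.40 (SE 0.19), none of them called.

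Of 24 measured growth factors and IGF binding proteins, 20 had the lower level in PMD-Sen cells, against 7423 of all 14741 genes. The median was -0.73, and 2 were called lower, against 0.38% of all genes. Both PMD-Sen libraries lay below both RS libraries for 13 of 21 with reads, against 23.3% of all genes. GDF6, a BMP family ligand, had 3341 and 4191 normalized reads in RS and 1263 and 1060 in PMD-Sen libraries, a difference of -1.70 (SE 0.31, adjusted p = 5.49e-05, z test). ANGPT1, the ligand of the TIE2 receptor, had 4123 and 7513 against 2320 and 2365, a difference of -1.31 (SE 0.34), with 2934 and 3536 in untreated libraries. Without RS library B the difference of ANGPT1 was -0.82. HBEGF and IGFBP7, picked out after their values were seen, were near the threshold, with -1.42 (SE 0.40, adjusted p = 0.052) and -0.74 (SE 0.21, adjusted p = 0.0549, z test).

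Interleukins and chemokines gave no called gene among 19 measured, and their median was -0.03. IL6 had 146 and 351 normalized reads in RS, 105 and 230 in PMD-Sen and 73.3 and 115 in untreated libraries, so the pairs overlapped. The interval of its difference ran from -1.91 to 0.77, and that of CXCL8 from -4.72 to 2.58, too wide to show either likeness or a change. GDF15, a stress cytokine, differed by 0.36 (SE 0.28), and its interval of -0.18 to 0.91 excludes a change of 1 log2 unit.

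Among collagens, other matrix proteins, laminins and integrins, 3 genes were called, all lower in PMD-Sen cells. LUM, lumican, a collagen-binding proteoglycan, had 4779 and 3937 normalized reads in untreated, 14770 and 31294 in RS and 7661 and 7701 in PMD-Sen libraries. Its difference of -1.58 (SE 0.37, adjusted p = 0.00721, z test) was -0.94 without RS library B. LUM was the 1 gene called of 26 measured elastic fibre, proteoglycan and matricellular genes, against 0.38% of all genes called lower. Of the 26, 19 had the lower level in PMD-Sen cells, with a median of -0.35. None of 24 collagen genes was called, with a median of -0.10, and 7 of them had an interval within 1 log2 unit of 0, against 55.2% of all genes. Without the untreated share of the error 3 were called higher and 2 lower. The chains of collagen VI, picked out after their values were seen, had differences of 1.07 for COL6A1 (SE 0.31, adjusted p = 0.0743), 1.04 for COL6A2 (SE 0.30, adjusted p = 0.0703) and 0.80 for COL6A3 (SE 0.31, adjusted p = 0.346) by the z test. Of the main chains of basement membrane collagen IV, chosen likewise, COL4A1 differed by -1.00343 (SE 0.32) and COL4A2 by -0.62 (SE 0.23).

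ITGA11, the alpha 11 chain of a collagen receptor, had 9152 and 18547 in RS and 4529 and 5359 in PMD-Sen libraries. Its difference was -1.49 (SE 0.38), and -0.89 without RS library B. ITGA3, a chain of a laminin receptor, had 19632 and 19780 against 12072 and 8858, a difference of -0.91 (SE 0.24). They were the 2 called of 25 laminin and integrin genes, against 0.38% of all genes called lower. Of the 25, 19 had the lower level in PMD-Sen cells, with a median of -0.25. Both PMD-Sen libraries lay below both RS libraries for 10 of 22 with reads, against 23.3% of all genes. The common partner chain ITGB1 differed by -0.32 (SE 0.20) and was not called.

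Of 18 measured proteases and inhibitors, 3 were called, all of them inhibitors, against 0.692% of all genes. SERPINE2, which blocks thrombin and urokinase, had 22648 and 33351 in RS and 12484 and 9634 in PMD-Sen libraries, a difference of -1.34 (SE 0.34). SERPINB2, which blocks urokinase, had 349 and 501 against 157 and 99.8, a difference of -1.73 (SE 0.48). TIMP3, a matrix-bound inhibitor of metalloproteinases, moved the other way. Its level was 29576 normalized reads in PMD-Sen, 16254 in RS and 26209 in untreated cells, a difference of 0.86 (SE 0.18, adjusted p = 0.000902, z test), and reads of its single libraries were not recovered.

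Membrane repair genes were measured because the agent acts on the membrane. Of 27 measured, 1 was called, against 0.692% of all genes. The 95% interval of 24 lay within 1 log2 unit of 0, against 55.2% of all genes. Their median standard error was 0.22, against 0.32 for all genes, and smaller errors give narrower intervals. The called gene was DYSF, dysferlin, a Ca2+ sensor that brings vesicles to membrane wounds and is mutated in muscular dystrophy. It had 14.3 and 23.4 normalized reads in untreated, 288 and 634 in RS and 46.8 and 20.97 in PMD-Sen libraries. The difference was -3.77 (SE 0.96, adjusted p = 0.0233, z test), 13.7-fold lower in PMD-Sen cells. Leaving out each senescent library gave -4.46 (without PMD-Sen library A) to -3.09 (without RS library B). PMD-Sen library B lay between the untreated libraries and RS above all others. CHMP4B, an ESCRT-III subunit, had 4650 and 4509 in RS and 4026 and 4297 in PMD-Sen libraries. Its difference was -0.14 (SE 0.19, interval -0.52 to 0.24). MYOF, the ferlin that fibroblasts express at a high level, differed by -0.16 (SE 0.21), ANXA2 by 0.07 (SE 0.20) and ANXA5 by 0.10 (SE 0.18). CHMP2B and ANXA1, picked out after their values were seen, differed by -0.62 (SE 0.27) and -0.61 (SE 0.26). Both PMD-Sen libraries lay below both RS libraries for each. Without the untreated share of the error 3 of the 27 were called lower, against 2.91% of all genes, and 0 higher.

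Telomere genes were looked at because RS cells were passaged until they stopped dividing. Telomere length was not measured in these data. TERT, the catalytic subunit of telomerase, was listed at 0 in both tables. None of 10 measured shelterin and telomerase genes was called, with a median of -0.09, and 8 had an interval within 1 log2 unit of 0, including TERF1 at -0.42 (SE 0.27) and TERF2 at -0.13 (SE 0.24). Of 3 measured genes reported elsewhere to respond to telomere length, 1 was called, against 0.692% of all genes. This was DSP, desmoplakin, a protein of desmosomes. It had 368 and 452 normalized reads in untreated, 1684 and 4242 in RS and 669 and 665 in PMD-Sen libraries. The difference was -2.15 (SE 0.46, adjusted p = 0.00178, z test), and -1.34 without RS library B. C1S and ISG15 differed by 0.18 (SE 0.33) and 0.20 (SE 0.36) and were not called.

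Apart from cell division genes, genes higher in PMD-Sen cells were of varied function. CRYBG1, an actin-binding protein also called AIM1, had 1319 and 769 normalized reads in untreated, 33.9 and 49.5 in RS and 395 and 506 in PMD-Sen libraries. Its difference was 3.44 (SE 0.45, adjusted p = 1.88e-10, z test), 10.9-fold. SOCS1, an inhibitor of cytokine signalling, had 72.5 and 103 in RS and 283 and 588 in PMD-Sen libraries, and FES, a tyrosine kinase, had 21.2 and 30.5 against 113 and 144. Both differed by 2.32 (SE 0.50 and 0.49), SOCS1 by 1.69 without PMD-Sen library B. The untreated libraries of SOCS1, 347 and 238, overlapped with those of PMD-Sen cells.

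SERPINF1, which encodes the secreted factor PEDF, had 698 and 420 in RS, 1531 and 2882 in PMD-Sen and 1526 and 1486 in untreated libraries, a difference of 1.98 (SE 0.38). PTGER2, the EP2 receptor of prostaglandin E2, had 605 and 697 against 1279 and 2061, a difference of 1.36 (SE 0.29). It was the 1 gene called of 12 prostaglandin genes, against 0.312% of all genes called higher. BDKRB2, the bradykinin receptor, and ADGRG6, an adhesion receptor, were picked out after their values were seen. BDKRB2 had 2399 and 2691 in RS and 5141 and 6657 in PMD-Sen libraries, and ADGRG6 had 106 and 224 against 595 and 686. The difference of ADGRG6 was 1.96, and 2.60 without RS library B. RASL12, a small GTPase, had 20.6 and 14.2 against 87.3 and 297, and its difference of 3.45 (SE 0.76) was 2.32 without PMD-Sen library B.

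FLII, which binds actin and nuclear receptors, had the largest rise among genes named by size, with 113 and 86.1 normalized reads in RS and 1200 and 3122 in PMD-Sen libraries. Its difference was 4.44 (SE 0.73), and 3.59 without PMD-Sen library B. Its place at chr17:18244836-18258916 (GRCh38, GENCODE 29) is beside genes whose libraries disagreed widely: MIEF2 had 8.47 and 173 in the RS pair and TOP3A 174 and 25.3 in the untreated pair. On the other side LLGL1 was even, with 1662 and 1634 in RS and 1776 and 2415 in PMD-Sen libraries. On the side of MIEF2 and TOP3A, SMCR8 was even at a low level, with 30.7 and 29.8 in RS and 28.8 and 32.9 in PMD-Sen libraries. SHMT1, in the same stretch, had 0.529 and 1.36 in RS and was also called. The values of FLII and SHMT1 are therefore given as uncertain, and whether reads were lost or shared there was not tested.

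The other gene groups gave few or no calls. None was called among 24 cholesterol synthesis genes, but 22 of them had the lower level in PMD-Sen cells, with a median of -0.56. Both PMD-Sen libraries lay below both RS libraries for 21 of the 24, against 23.3% of all genes. HMGCS1 had 2188 and 1043 normalized reads in RS and 716 and 680 in PMD-Sen libraries, a difference of -1.21 (SE 0.42), and -0.58 without RS library A. MSMO1 differed by -1.37 (SE 0.41). The median gene of the list lay 0.98 log2 units above the untreated mean in RS library A and 0.38 above it in library B, so RS library A was the higher. Both genes were chosen after their values were seen. Without the untreated share of the error, 7 of the 24 were called lower and 1 higher.

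None was called among stress and metabolic genes. The medians were 0.02 for 26 lysosome genes, 0.03 for 16 genes of the unfolded protein response, 0.01 for 24 NRF2 and antioxidant genes, 0.15 for 19 ATF4 targets, -0.17 for 14 cytosolic heat shock genes and -0.08 for 23 hypoxia and glycolysis genes. All 13 respiratory chain genes of the mitochondrial genome, 21 of the lysosome and 14 of the unfolded protein response genes had an interval within 1 log2 unit of 0, against 55.2% of all genes. So did 15 of the NRF2 and antioxidant genes, 12 of the ATF4 targets, 10 of the heat shock genes and 17 of the hypoxia and glycolysis genes. The median standard error was 0.19 for the mitochondrial, 0.23 for the lysosome and 0.25 for the unfolded protein response list, against 0.32 for all genes. Smaller errors give narrower intervals, so these shares also depend on precision. None of 23 interferon-stimulated genes was called, and in none of them did the pairs of libraries separate. Only 4 of these intervals lay within 1 log2 unit, so the interferon genes were measured too loosely to call them alike. Medians were 0.10 for 13 complement genes, 0.07 for 20 contractile genes, -0.22 for 17 lipid synthesis and storage genes, -0.35 for 21 WNT and BMP genes, 0.17 for 14 HOX genes, -0.63 for 4 metallothioneins and -0.48 for 8 replication-dependent histones. None of these was called. Of 15 MHC class I genes 8 were measured, with a median of 0.16 and none called, while HLA-F and PSMB8 had a mean of 0 in both tables.

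**Figure D4:**
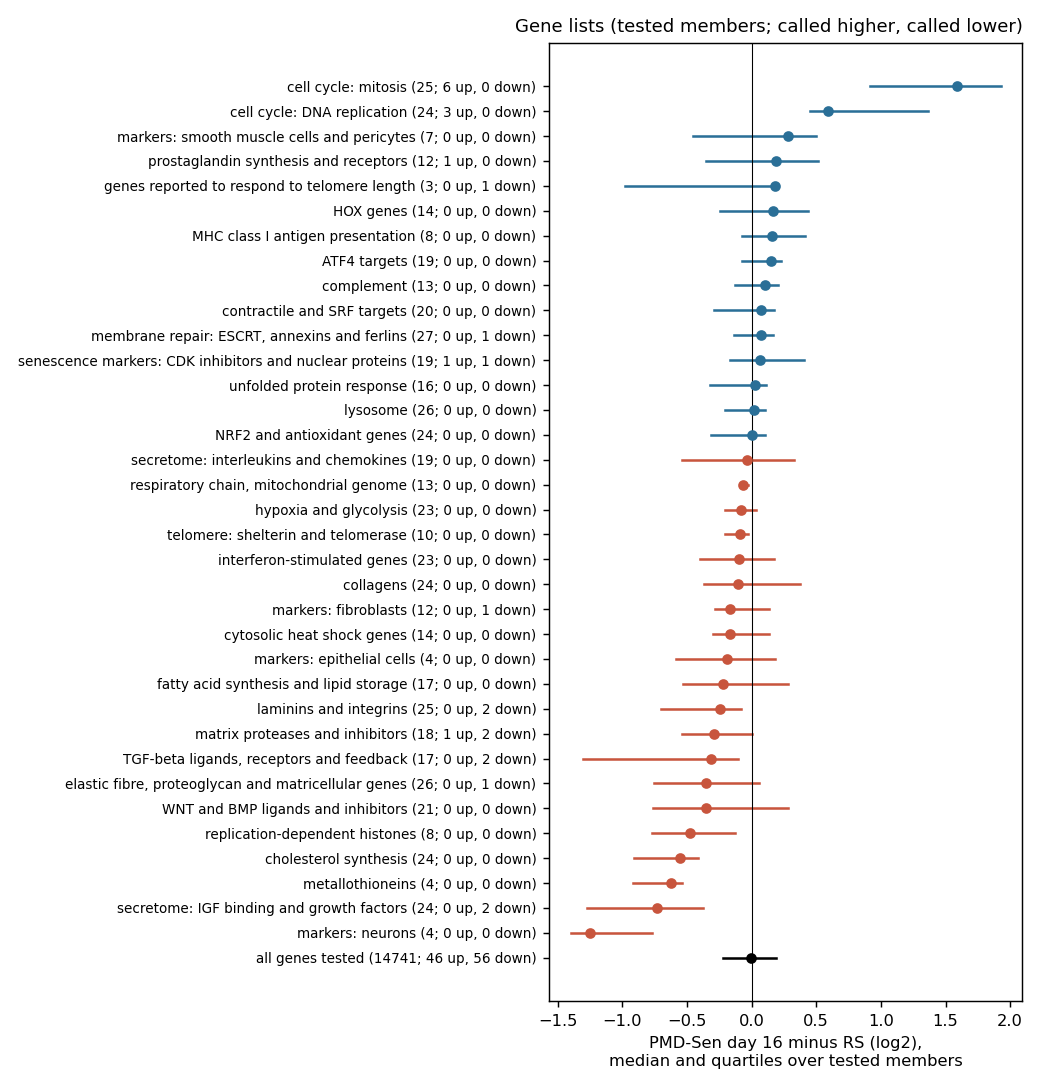
Median (point) and quartiles (line) of the difference PMD-Sen day 16 minus RS over the measured members of each gene list shown, with at least 3 of them, with the number measured and called in brackets and all 14741 genes in black. The mitosis list lies farthest right at 1.59 and the growth factor list, at -0.73, farthest left of the lists with over 4 measured genes.

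Set against untreated cells, RS was farther from the untreated level than PMD-Sen for 41 of 45 genes called higher with reads and for 45 of 56 called lower. Over all 14490 genes with reads that share was 55.7%. For 31 of the 45 both pairs lay below both untreated libraries, against 24.8% of all genes, and for 24 of the 56 both pairs lay above them, against 24.7%. In 4 of the genes called higher RS lay below and PMD-Sen above both untreated libraries, against 1.16% of all genes. In 13 called lower RS lay above and PMD-Sen below, against 1.45%. The genes were chosen by the difference from RS, so these shares are a description.

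Levels in the other senescent states stood beside these. They share the untreated libraries with both groups, so they are given as values and not tested. DDR-Sen cells had 250 nM doxorubicin for 24 h and Ca2+-Sen cells 75 mM KCl for 24 h, both at day 16, and PMD-Sen cells were also collected at day 8. LMNB1 had a level of 616 normalized reads in Ca2+-Sen, 447 in PMD-Sen day 8, 201 in PMD-Sen day 16, 56.1 in DDR-Sen and 41.5 in RS cells. PLK1 followed the same order, with 684, 512, 223, 72.6 and 58.2. CCND2 had 2680, 2633, 4226, 9052 and 16167 in that order of groups. CDKN2B had 570, 582, 509, 877 and 1714, and DYSF 22.1, 32.9, 33.9, 84.2 and 461. DDR-Sen thus lay between PMD-Sen day 16 and RS in these 5 genes. Over the mitosis and replication lists it lay near RS, with a median difference from RS of 0.03 and 0.04. PMD-Sen day 16 had 1.59 and 0.59. AURKB, for 1, had a level of 17.2 in DDR-Sen and 21.5 in RS cells. FST had 7301, 4142, 3046, 4455 and 7522, with its lowest level in PMD-Sen day 16. SERPINF1 was highest in PMD-Sen day 16 with 2207 against 845, 1269, 944 and 559.

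**Figure D5:**
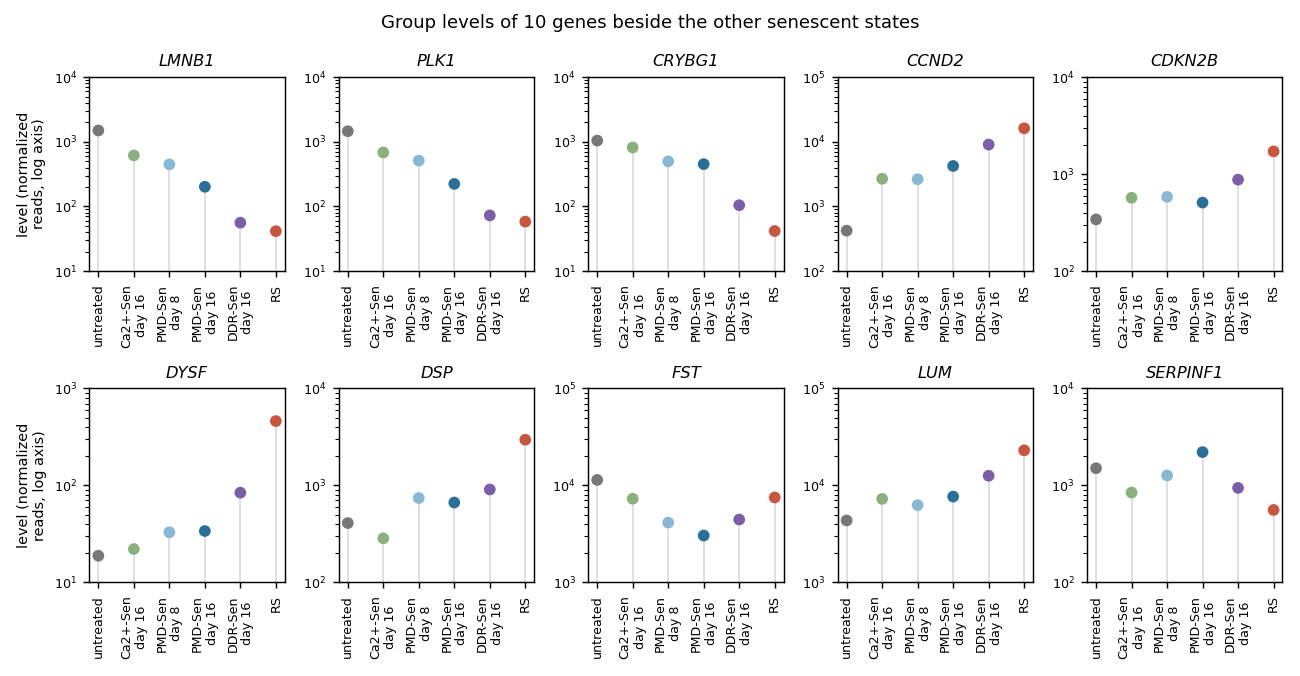
Level (normalized reads, log axis) of 10 genes in untreated, Ca2+-Sen day 16, PMD-Sen day 8, PMD-Sen day 16, DDR-Sen day 16 and RS cells, each point a group level of 2 libraries. LMNB1 falls from 1496 in untreated to 41.5 in RS cells along the axis, while CCND2 runs from 422 to 16167.

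For 8138 genes, 55.2% of those tested, the 95% interval of the difference lay within 1 log2 unit of 0, and 811 genes (5.5%) differed by at least 1 log2 unit, called or not.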

How the data were processed

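WI-38 mRNA was sequenced as paired 150-base reads in 2 libraries per group. The authors deposited, for each group, a table made with DESeq2 against the same untreated libraries, with reads mapped to GRCh38 (hg38) by HISAT2 and counted per gene, according to the submitters' processing notes, versions not given. The mean column holds a signal, the mean of counts divided by size factors over 4 libraries, as deposited. The deposited log2 columns hold the log2 fold change and its standard error. The tables' own test statistics and p-values were not used, and their fold changes served only to form group levels and the difference. The 4 files of untreated and RS cells were identical, as were the 2 files of PMD-Sen day 16. There, 1 row without a gene name was dropped.

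The difference between groups was the difference of the log2 fold changes of the 2 tables, divided by the standard error from both tables (squares added) for a two-sided z test, adjusted over 14741 genes. Whole reads of each library were recovered by integer lattice reduction (sympy 1.14.0), accepted for 98.3% of those genes, from the RS, PMD-Sen day 16 and Ca2+-Sen day 16 tables together. For 1999 of 1999 genes the untreated reads from 2 separate tables were identical. The p-values rest on 2 libraries a group, described as independent samples. Limma 3.58.1 (voom) in R 4.3.3 was run on the recovered reads of 6 libraries. The read recovery, the z test with either error term and limma-voom were tested on simulated data. The members of this comparison and the 38 gene lists were chosen with earlier results of these data known. Genes were named if among the 10 largest rises or 10 largest falls called with a level of at least 100 in either senescent group and SE under 0.8, among the 4 largest called in a list, or in a fixed set (CDKN1A, CDKN2A, CDKN2B, LMNB1, GDF15, IL6, CXCL8, MKI67, TERT, CHMP4B and 1 gene that, like some other items, is not reported here), and others are said to be picked after their values were seen, as were list members given as examples beside a list's count. Other tests and filters are given in the closing section.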

Additional observations from a re-analysis of the deposited data

Results flagged for a closer look

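For 17 called genes the 2 states lay on opposite sides of the untreated libraries, with both libraries of one state above both untreated libraries and both of the other below, and the difference itself passed the z test. In 13 of them RS was above and PMD-Sen day 16 below, an order found in 1.45% of all genes with reads. The differences (log2) were -2.35 for DGKI, -1.54 for CSRNP1, -1.31 for ANGPT1, -1.28 for COLGALT2, -1.07 for RGS4, -1.04 for CHRM2, -1.01 for OXR1, -0.99 for TIPARP, -0.98 for PCDH7, -0.97 for PRPS1, -0.94 for PAWR, -0.83 for ENC1 and -0.82 for RUNX1. CHRM2, the M2 muscarinic receptor, had 4768 and 4903 normalized reads in untreated, 8639 and 7725 in RS and 4662 and 3313 in PMD-Sen libraries. RUNX1, a transcription factor, had 2397 and 2440, then 3003 and 3660, then 1892 and 1875. In 4 genes RS was below and PMD-Sen day 16 above, an order found in 1.16% of all genes with reads, with 1.24 for LRIG3, 1.98 for SERPINF1, 3.45 for RASL12 and 4.44 for FLII. The value of FLII is uncertain, as stated above. LRIG3, a membrane protein that restrains growth factor receptors, had 642 and 535 in untreated, 277 and 347 in RS and 657 and 815 in PMD-Sen libraries, so its PMD-Sen library A was close to the untreated pair. Such narrow margins were also found in SERPINF1, CHRM2 and PRPS1. Their PMD-Sen library A had 1531, 4662 and 2583, against 1526, 4768 and 2648 in the nearest untreated library. Limma-voom called none of the 17.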

How the results depend on the processing

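The number of calls depended most on the error term. With the standard error without the untreated share, 749 genes were called, 320 higher and 429 lower, and with limma-voom on the recovered reads 13, of which 1 was higher (SMIM11A) and 12 lower. With every gene of a mean above 0 in both tables, 67 were called, 28 higher and 39 lower. Leaving out each of the 6 libraries from limma-voom gave 0 to 510 calls, 0 to 120 higher and 0 to 390 lower. The counts were 510 without RS library A, 265 without RS library B and 0 without any 1 of the other 4. A pair cut to 1 library was assumed to vary like the others. With a mean of at least 100, with a minimum difference of 1 log2 unit, with centring on the median, with scaling by summed counts and without genes of SE above 0.8, the calls were 92 to 112. Genes with an interval within 1 log2 unit of 0 numbered 8126 to 9738. In the single-library values no called, named gene could change sign, because the pairs of called genes with reads did not overlap. Of 60 called and named genes with reads, the fold of 26 moved by over 1.5 times when a library was left out, 13 of them without RS library A and 11 without RS library B. Of 38 list medians, 37 kept their value within the median standard error of their genes in every alternative tried on them, and that of smooth muscle and pericyte markers was -0.46 with a mean of at least 100 against 0.28. No paired analysis was possible because the recovered libraries carry no replicate number.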
